A study of Mus musculus with 6 samples.

Results

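The 6 genes described here are the adult globins Hba-a1, Hba-a2, Hbb-bs and Hbb-bt, together with Alas2 and Bpgm, as measured in whole mouse hearts. They were chosen by name as red cell genes, and all 6 were found among the 44792 gene symbols of the count table. The study set 3 hearts of mice with the cTnI R193H mutation against 3 wild type hearts, where cTnI, cardiac troponin I, is the troponin protein that holds back contraction between beats. All 6 mice were of the C57BL/6 strain, untreated and 3 months old. The labels do not say how the R193H allele was made, whether the mice carried 1 or 2 copies of it, or whether hearts were rinsed of blood before RNA extraction. There was 1 library per heart, and the hearts within a group are biological repeats by the submitters' design text.

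Adult haemoglobin is built from alpha and beta globin chains, each holding a haem group that binds oxygen. Globin messenger RNA is made in red cell precursors of the bone marrow and spleen, is still present in the reticulocytes released into the blood, and is lost as red cells mature. A heart makes its own oxygen-binding protein, myoglobin, and has no red cell production, so globin reads in heart RNA are commonly read as a measure of the blood left in the tissue. Alas2 encodes the first enzyme of haem synthesis in red cell precursors. Bpgm encodes the enzyme that makes 2,3-bisphosphoglycerate, a small molecule that lowers the oxygen affinity of haemoglobin, and unlike the others it is also transcribed in other tissues.

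The alpha globin genes Hba-a1 (GRCm38.p6 chromosome 11, 32283672 to 32284486, plus strand) and Hba-a2 (32296492 to 32297310, plus strand) are neighbouring copies. The beta globin genes Hbb-bs (chromosome 7, 103826523 to 103827928, minus strand) and Hbb-bt (103812524 to 103813923, minus strand) are neighbouring copies as well. In the GENCODE M21 transcripts, the 426 coding bases of Hba-a1 and Hba-a2 differed at 1 position, C381T, and the 441 coding bases of Hbb-bs and Hbb-bt also differed at 1 position, C417T, both counted from the first base of the coding sequence. The 30 coding bases around each difference are shown because they are the places where a coding read can tell the copies apart, with the differing base in capitals:
Hba-a1 coding, chr11:32284328-32284357, plus strand: gcatgcctctctggaCaaattccttgcctc
Hba-a2 coding, chr11:32297145-32297174, plus strand: gcatgcctctctggaTaaattccttgcctc
Hbb-bs coding, chr7:103826678-103826707, minus strand: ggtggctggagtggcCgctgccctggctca
Hbb-bt coding, chr7:103812669-103812698, minus strand: ggtggctggagtggcTgctgccctggctca
Of all windows of 50 bases in the Hba-a2 transcript, 86.9% also occurred in the Hba-a1 transcript, and of windows of 150 bases, 65.7% did. For Hbb-bt against Hbb-bs the shares were 58.3% and 50.7%. How the authors' counting treated reads that match both copies is not given in the sources used here, so the split of counts within each pair is uncertain, and if such reads were dropped the sum of a pair is too low.

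The bases before the start sites of 5 of the genes are shown as background. A link between these sequences and the levels in the hearts was not tested. Each stretch is the 250 bases before the RefSeq start on GRCm38.p6. Capitals mark matches, on either strand, to AGATAA and TGATAA (2 forms of the sequence bound by the erythroid factor GATA1), CACCC (in the sequence bound by the erythroid factor KLF1), CCAAT and TATAA:
Hba-a1 upstream, chr11:32283422-32283671, plus strand: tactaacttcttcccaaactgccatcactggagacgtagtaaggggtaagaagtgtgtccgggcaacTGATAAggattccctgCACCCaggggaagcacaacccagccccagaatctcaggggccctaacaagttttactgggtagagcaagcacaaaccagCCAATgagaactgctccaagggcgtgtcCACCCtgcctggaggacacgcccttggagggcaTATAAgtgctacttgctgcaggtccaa
Hbb-bs upstream, chr7:103827929-103828178, minus strand: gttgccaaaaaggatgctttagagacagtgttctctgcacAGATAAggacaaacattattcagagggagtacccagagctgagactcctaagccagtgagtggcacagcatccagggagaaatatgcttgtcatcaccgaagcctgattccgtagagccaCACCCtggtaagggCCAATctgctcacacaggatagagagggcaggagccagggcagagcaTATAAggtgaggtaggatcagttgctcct
Hbb-bt upstream, chr7:103813924-103814173, minus strand: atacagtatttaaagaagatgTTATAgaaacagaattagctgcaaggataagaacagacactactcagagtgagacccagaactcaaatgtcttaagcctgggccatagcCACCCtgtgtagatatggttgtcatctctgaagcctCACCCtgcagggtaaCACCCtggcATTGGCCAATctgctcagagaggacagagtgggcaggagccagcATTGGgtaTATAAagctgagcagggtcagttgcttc
Alas2 upstream, chrX:150547167-150547416, plus strand: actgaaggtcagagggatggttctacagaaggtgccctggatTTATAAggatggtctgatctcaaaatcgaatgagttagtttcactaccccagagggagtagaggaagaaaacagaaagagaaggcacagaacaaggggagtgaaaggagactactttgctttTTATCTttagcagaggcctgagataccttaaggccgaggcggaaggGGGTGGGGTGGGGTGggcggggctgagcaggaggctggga
Bpgm upstream, chr6:34476106-34476355, plus strand: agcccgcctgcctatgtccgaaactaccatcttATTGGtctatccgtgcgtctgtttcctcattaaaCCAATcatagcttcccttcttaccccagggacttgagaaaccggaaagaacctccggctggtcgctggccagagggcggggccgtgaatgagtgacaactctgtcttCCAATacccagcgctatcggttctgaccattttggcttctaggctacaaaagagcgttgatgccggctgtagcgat
The stretch before Hba-a2 was the same as that before Hba-a1 over 247 aligned bases with 0 mismatches, shifted by 3 bases. TGATAA stood before Hba-a1 and Hba-a2, and AGATAA before Hbb-bs and, on the other strand, before Alas2. Among all 32851 promoters of the same length, 7.94% held TGATAA and 9.99% held AGATAA. The letters CACCC were found in 5 of the 6 (all but Bpgm), against 52.0% of all promoters. The letters CCAAT were found in 5 (all but Alas2), against 33.8% of all promoters. The letters TATAA were found in 5 (all but Bpgm), against 22.8%. The 2 TATAA matches before Alas2 lie on opposite strands and overlap, and no matches to different motifs overlapped. These are matches of letters in a window and no measure of binding.

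Libraries held 19582600 to 21852210 counts in R193H hearts and 14736067 to 20652534 in wild type hearts. Levels below are CPM, each gene's counts relative to its library's total, with totals scaled by the trimmed mean of M values (TMM). A level of 3 reads, the most that a count of 0 leaves possible, was 0.135 to 0.140 CPM in R193H hearts and 0.150 to 0.213 CPM in wild type hearts. Heart muscle markers were abundant in every library, in which the 10 ventricular cardiomyocyte genes summed to 54087 to 60540 CPM in R193H hearts and 61548 to 63787 CPM in wild type hearts. Mitochondrially encoded genes took 30.9% to 35.4% of counts in R193H hearts and 36.7% to 36.8% in wild type hearts.

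Red cell RNA was more uneven among the wild type hearts than between the genotypes. The 4 globins together took 0.0475%, 0.0689% and 0.0557% of all counts in R193H replicates 1, 2 and 3, and 0.289%, 0.0237% and 0.281% in wild type replicates 1, 2 and 3. Wild type replicates 1 and 3 were the highest of the 6 hearts and wild type replicate 2 was the lowest, so the 3 R193H hearts lay between them. Counting error was small beside these gaps: the Wilson 95% interval was 0.0230% to 0.0244% in wild type replicate 2 and 0.0466% to 0.0485% in R193H replicate 1, the nearest heart above it. These intervals cover counting error only. The group means were 0.0574% ± 0.0108 in R193H and 0.198% ± 0.151 in wild type hearts (SD, n = 3 each), a difference of -0.141 percentage points with p = 0.4 in a 2-sided exact permutation test over hearts. With 3 hearts against 3, this test cannot give a p below 0.1. In bulk tissue, fewer red cells and less RNA per red cell cannot be told apart.

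Hbb-bs, the more abundant beta globin in these counts, had 359.7, 484 and 439 CPM in R193H replicates 1, 2 and 3. In wild type replicates 1, 2 and 3 it had 2293, 193.05 and 2220 CPM. Hba-a1, the more abundant alpha globin in these counts, had 82.1, 95.7 and 88.3 CPM in R193H hearts and 559, 43.1 and 517 CPM in wild type hearts, in the same order. Both genes put wild type replicate 2 below every R193H heart and the other wild type hearts above them all. Hbb-bt had 21.1, 31.8 and 24.0 CPM in R193H hearts and 139.9, 12.5 and 142 CPM in wild type hearts. Hba-a2 had 4.05, 5.40 and 5.82 CPM in R193H hearts and 29.3, 1.76 and 27.8 CPM in wild type hearts, where 29 reads stood behind the lowest value. The order of hearts was thus alike in all 4 globins at the extremes, and the groups overlapped in each.

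Alas2 (chromosome X, 150547417 to 150570622, plus strand) had 9.04, 12.9 and 8.43 CPM in R193H replicates 1, 2 and 3, and 73.3, 6.61 and 66.0 CPM in wild type replicates 1, 2 and 3. Its lowest heart was again wild type replicate 2. Bpgm (chromosome 6, 34476356 to 34505136, plus strand) had 19.96, 20.4 and 17.4 CPM in R193H hearts and 41.7, 17.2 and 36.9 CPM in wild type hearts. The Bpgm level of wild type replicate 2 was close to those of the R193H hearts, where its globin level was well below theirs. From the lowest to the highest of the 6 hearts, the level differed 11.1-fold for Alas2, 11.4-fold for Hbb-bt, 11.9-fold for Hbb-bs, 13.0-fold for Hba-a1 and 16.7-fold for Hba-a2, and 2.43-fold for Bpgm.

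**Figure D1:**
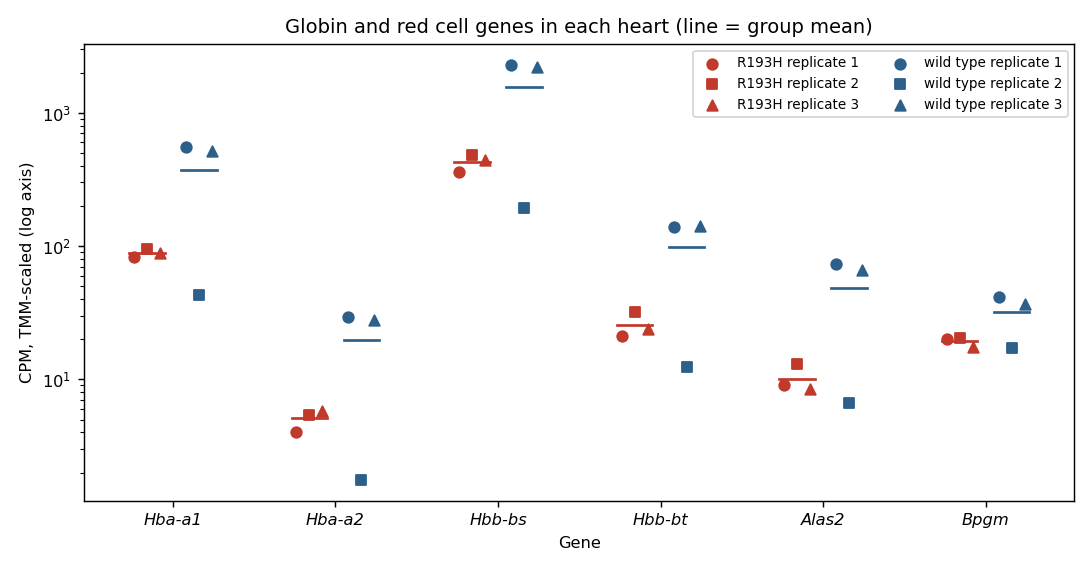
Level of each of the 6 genes in each heart, in TMM-scaled CPM on a log axis, with R193H hearts (red) left of wild type hearts (blue), 1 point per heart and a line at each group mean. In every gene, wild type replicate 2 (blue square) is the lowest heart and wild type replicates 1 and 3 are the highest, with the 3 R193H hearts between.

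In edgeR's quasi-likelihood test over 14370 genes, which all 6 members entered, 0 of the 6 passed an adjusted p of 0.05, and 0 had an unadjusted p under 0.05. Over all genes tested, 0.00696% were called, which is 1 gene. DESeq2 also called 0 of the 6 beside 0.292% of all genes, limma-voom 0 of the 6 beside 0.00696%, and edgeR with no filter 0 of the 6 beside 0.16%. The log2 fold changes of R193H over wild type were -2.07 for Hba-a1 (SE 1.01), -1.95 for Hba-a2 (SE 1.03), -1.88 for Hbb-bs (SE 0.99), -1.94 for Hbb-bt (SE 0.97), -2.26 for Alas2 (SE 0.96) and -0.73 for Bpgm (SE 0.33). The edgeR adjusted p values lay between 0.867 and 0.898. With limma-voom the log2 fold changes of the 4 globins were smaller, between -1.18 and -1.39, with -1.67 for Alas2 and -0.63 for Bpgm. The median over the 6 was -1.94, against -0.00036 over all genes tested, of which 50.1% had a lower mean in R193H hearts. In 0 of the 6 were the groups apart, while in 5.8% of all genes tested every R193H heart lay below every wild type heart and in 6.02% every one lay above.

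The outcome of the test depended on 1 heart. Without wild type replicate 2, all 6 genes were called lower in R193H hearts, with edgeR adjusted p of 6.3e-05 for Hba-a1, 4.74e-04 for Hbb-bs, 0.00149 for Hba-a2, 0.00257 for Hbb-bt, 0.00257 for Alas2 and 0.0272 for Bpgm. The log2 fold changes were then -2.60 (SE 0.099) for Hba-a1, -2.40 (SE 0.13) for Hbb-bs, -2.78 (SE 0.18) for Alas2 and -1.03 (SE 0.11) for Bpgm. In that fit 0.0475% of 14724 genes were called, all lower, and the 6 members were 6 of those 7 genes, the other being TrnL1, a mitochondrial transfer RNA. With R193H replicate 1, 2 or 3 left out, 0 of the 6 were called, beside 0.0205%, 0.041% and 0.143% of all genes. With wild type replicate 1 or 3 left out, 0 of the 6 were called, beside 0.0408% and 0.0273%. The fit without wild type replicate 2 leaves 2 wild type hearts, both high in globins, so it sets those hearts against the R193H hearts and does not measure how wild type hearts vary.

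**Figure D2:**
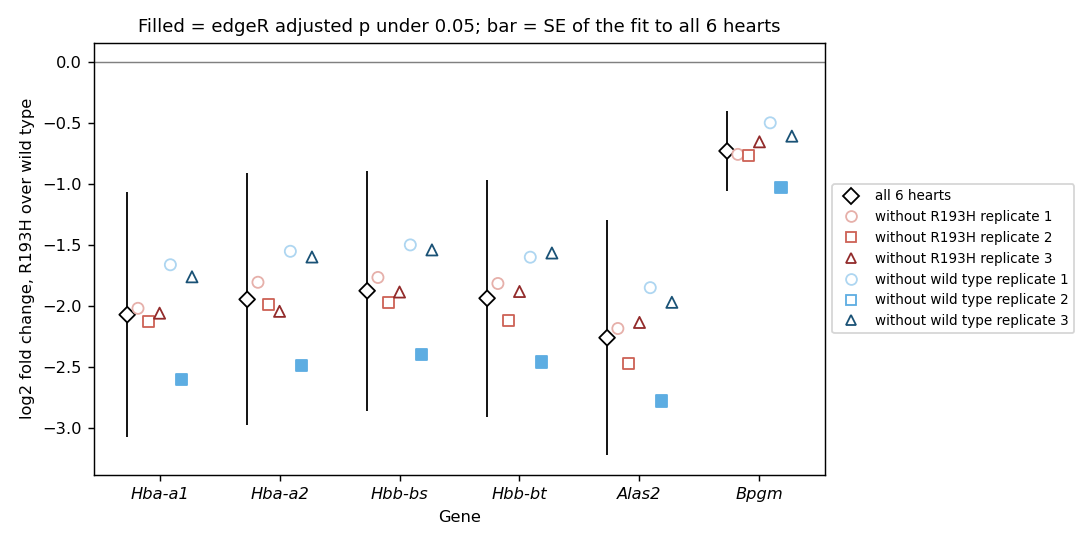
Log2 fold change of R193H over wild type for each gene with all 6 hearts (black diamond, with its SE) and with each heart left out in turn, where filled symbols have an edgeR adjusted p under 0.05. Filled symbols occur only without wild type replicate 2, and all values lie below 0.

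The uneven level among wild type hearts can be set against other genes. On the log2 CPM scale, the SD over the 3 wild type hearts was 2.10 for Hba-a1, 2.28 for Hba-a2, 2.05 for Hbb-bs, 2.01 for Hbb-bt, 1.95 for Alas2 and 0.69 for Bpgm. The median SD over the 12998 genes with a mean of at least 1 CPM was 0.14. Ordered by this SD, the 4 globins and Alas2 stood at places 25 to 40 of the 12998 genes, and Bpgm at place 311. Among the 3 R193H hearts the SDs were 0.11 to 0.33 for the 6 genes, against a median of 0.15. This ordering describes 3 hearts of a group and carries no test.

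Levels of different genes were compared per kilobase of the longest coding transcript. The globin levels also rest on how reads shared by copies were counted, which is not given. If such reads were dropped, the globin levels are too low, by amounts that can differ between globins. The places of the globins, among themselves and beside Alas2 and Bpgm, carry this limit, which the SDs do not cover. In R193H hearts the order was Hbb-bs at 681 ± 100.1 CPM per kilobase, Hba-a1 at 127 ± 9.74, Hbb-bt at 36.5 ± 7.89, Hba-a2 at 9.19 ± 1.67, Bpgm at 8.67 ± 0.72 and Alas2 at 4.98 ± 1.20 (SD, n = 3). The neighbours Hba-a2 and Bpgm did not differ beyond their spread. In wild type hearts the order was Hbb-bs at 2498 ± 1898 CPM per kilobase, Hba-a1 at 534 ± 410, Hbb-bt at 139.7 ± 106, Hba-a2 at 35.4 ± 28.0, Alas2 at 23.9 ± 18.0 and Bpgm at 14.4 ± 5.85 (SD, n = 3). There the SDs exceed the gaps between most neighbours, so the places of Hba-a2, Alas2 and Bpgm are given within hearts. Alas2 lay above Bpgm in wild type replicates 1 and 3 and below it in wild type replicate 2 and in the 3 R193H hearts. Hba-a2 (3.17) lay below Alas2 (3.24) and Bpgm (7.73) in wild type replicate 2. In R193H replicate 1 Hba-a2 (7.30) lay below Bpgm (8.99) and above Alas2. In the other hearts Hba-a2 lay above both.

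Ratios within a heart do not depend on how libraries are scaled. Among the globins and Alas2 they compare red cell genes with each other, apart from the total amount of red cell RNA. The ratio of Bpgm to globins does not separate these, since Bpgm is also transcribed in other tissues. The ratios that involve globins also rest on how reads shared by copies were counted, which is not given. The alpha globins had 0.226, 0.196 and 0.203 counts per beta globin count in R193H replicates 1, 2 and 3, and 0.242, 0.218 and 0.231 in wild type replicates 1, 2 and 3. The highest was 1.23 times the lowest, while the globin share itself differed much more between hearts. Hbb-bs had 17.0, 15.2 and 18.3 counts per Hbb-bt count in R193H hearts and 16.4, 15.5 and 15.6 in wild type hearts. Hba-a1 had 20.3, 17.7 and 15.2 counts per Hba-a2 count in R193H hearts and 19.1, 24.5 and 18.6 in wild type hearts. The 24.5 of wild type replicate 2 rests on the 29 reads of Hba-a2, whose share of alpha globin counts there was 3.92% with a Wilson 95% interval of 2.74% to 5.57%. In wild type replicate 1 this share was 4.99% (4.54% to 5.48%), so those intervals overlap.

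Alas2 had 19.4, 21.0 and 15.1 counts per 1000 globin counts in R193H replicates 1, 2 and 3, and 24.3, 26.4 and 22.7 in wild type replicates 1, 2 and 3. Every R193H heart lay below every wild type heart, including the wild type heart with the fewest globin reads. The nearest values were 21.0 in R193H replicate 2, from 283 Alas2 reads, and 22.7 in wild type replicate 3. The value of wild type replicate 2 rests on 109 Alas2 reads. Counting error was not computed for this ratio, so whether it spans that gap was not tested. The log2 difference was -0.41, with the smallest p that 3 hearts against 3 allow (exact permutation p = 0.1, and 0.4 adjusted over the 5 ratios). Bpgm had 42.7, 33.0 and 31.3 counts per 1000 globin counts in R193H hearts and 13.8, 68.5 and 12.7 in wild type hearts, so it was low beside globin wherever globin was high. The log2 differences of the other 4 ratios were -0.14 for alpha to beta, -0.22 for Hba-a1 to Hba-a2, 0.087 for Hbb-bs to Hbb-bt and 0.63 for Bpgm to globins, with exact permutation p between 0.2 and 0.4 and an adjusted p of 0.4 for each. For alpha to beta the sign turned with Hba-a2 alone as the alpha globin (0.069).

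**Figure D3:**
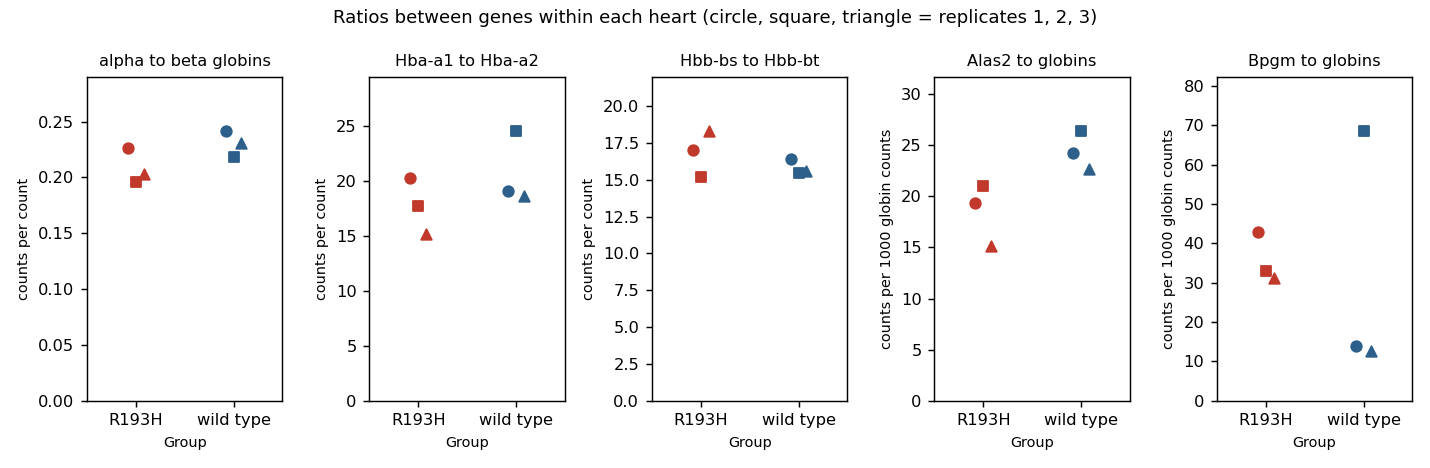
Ratios of counts within each heart for 5 pairs of genes or sums, with R193H hearts left of wild type hearts, 1 point per heart and every vertical axis starting at 0. Alpha to beta globin stays between 0.196 and 0.242 in all hearts, Alas2 per 1000 globin counts is lower in the 3 R193H hearts, and Bpgm per 1000 globin counts reaches 68.5 in wild type replicate 2.

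The genes whose profile was most like the globins were found by the root mean square (RMS) difference between a gene's log2 CPM, centred on its mean over the 6 hearts, and the mean of the 4 globins treated the same way. Among 12992 other genes with a mean of at least 1 CPM the median RMS was 1.39. Alas2 stood at 0.26 and Bpgm at 0.895. Bpgm was also highest in wild type replicates 1 and 3, with a smaller swing. Its centred value was -0.48 in wild type replicate 2 and -0.46 in R193H replicate 3. The globin mean was -1.80 and -0.59 in the same 2 hearts.

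Among the 10 nearest other genes was S100a9, a calcium-binding protein of neutrophils, at an RMS of 0.545. It had 0.944, 0.915 and 1.54 CPM in R193H hearts and 6.95, 0.242 and 2.65 CPM in wild type hearts. Others were Fam46c (0.648), LOC102636107 (0.744), Itga2b, an integrin of platelets (0.801), Cd22 of B cells (0.831), Csf3r, the receptor of the granulocyte growth factor (0.835), Rn7sk (0.844) and C030034I22Rik (0.847). The groups were apart in 1 of the 10 genes, beside 5.8% (R193H below) and 6.02% (R193H above) of all genes tested. That gene, C030034I22Rik, had 0.405 to 0.686 CPM in R193H hearts and 0.788 to 2.20 CPM in wild type hearts. It reached the required mean of at least 1 CPM only through wild type hearts. Its nearest hearts, R193H replicate 2 and wild type replicate 2, had 15 and 13 reads. Each of the 10 genes had 27 or fewer reads in wild type replicate 2, and the likeness over 6 hearts is a description. The 10 genes were picked for likeness to a globin profile in which the groups overlap. How many of them had groups apart was thus largely set by that choice.

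**Figure D4:**
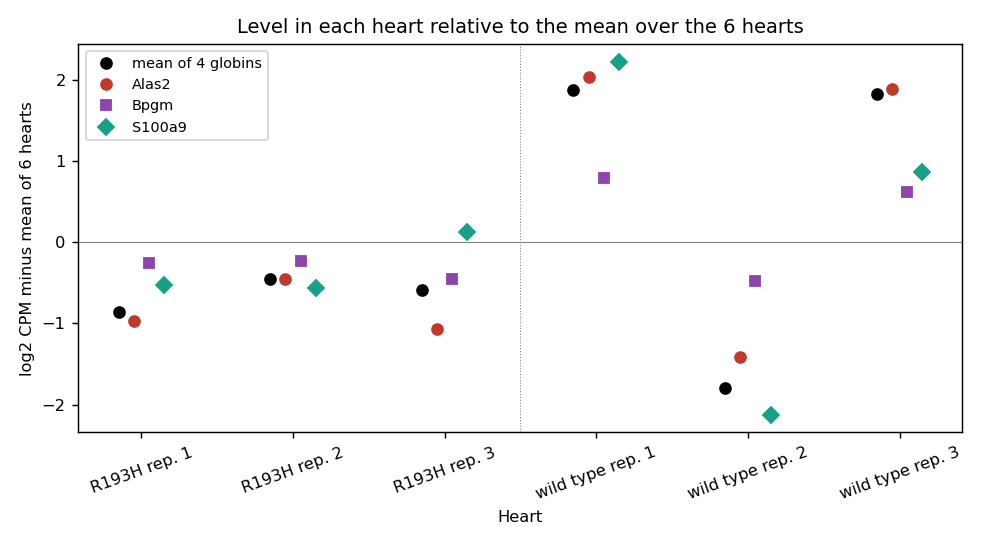
Log2 CPM of each heart minus the gene's mean over the 6 hearts, for the mean of the 4 globins, Alas2, Bpgm and S100a9, with the R193H hearts left of the wild type hearts. Globins, Alas2 and S100a9 are high in wild type replicates 1 and 3 and low in wild type replicate 2. Bpgm, with values between -0.48 and 0.80, is also high in wild type replicates 1 and 3, but its wild type replicate 2 is close to R193H replicate 3.

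Other haemoglobin genes gave almost no reads. Of 9 listed, 7 had 0 counts in all 6 hearts, among them the embryonic globins Hbb-y, Hbb-bh1 and Hba-x, and Hbb-b1 and Hbb-b2, the adult beta globins of other mouse strains. Hbq1a and Hbq1b, the theta globins, had at most 2 counts in a heart. The globins that muscle and connective tissue make for themselves had another pattern. Mb, the myoglobin of muscle, had 12761, 10853 and 12714 CPM in R193H hearts and 11879, 12104 and 12931 CPM in wild type hearts (log2 fold change -0.023, SE 0.092, edgeR adjusted p = 0.982, and above 0 under scaling by library totals). Cygb, cytoglobin, stood at 0.27 (SE 0.11, adjusted p = 0.85).

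A defining red cell marker other than the members was near the detection limit. Slc4a1, the anion exchanger of the red cell membrane, had 1, 5 and 0 reads in R193H replicates 1, 2 and 3, and 22, 2 and 35 reads in wild type replicates 1, 2 and 3. It had its most reads in wild type replicates 1 and 3, and was kept out of the test by the filter on low counts. Without wild type replicate 2 it passed the filter, with a log2 fold change of -4.09 (SE 0.76, edgeR adjusted p = 0.46). It passed only through the reads of wild type replicates 1 and 3, so a low fold change followed from how it entered. That value is no separate support for the members.

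Of 19 genes of the red cell membrane and skeleton, 10 were tested, 9 had lower and 1 had higher means in R193H hearts, and 0 passed in either direction (median log2 fold change -0.21, and -0.083 under library totals, where 6 were lower and 4 higher). Epb4.1, the band 4.1 protein that ties spectrin to actin, stood at -0.20 (SE 0.089), Cd24a at -0.39 (SE 0.20) and the glucose transporter Slc2a1 at -0.39 (SE 0.29). Of 19 genes of red cell maturation in the table, 13 were tested, 9 had lower and 4 higher means, and 0 passed (median -0.14, and -0.012 under library totals, where 7 were lower and 6 higher). Ube2o, a ubiquitin ligase that clears proteins during red cell maturation, stood at -0.24 (SE 0.086), Mkrn1 at -0.24 (SE 0.11) and Xpo7 at -0.14 (SE 0.090). Ube2o, Mkrn1 and Xpo7 are expressed in many tissues, and their levels were not near 0 in wild type replicate 2.

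The haem synthesis enzymes shared by all tissues did not share the profile of Alas2. Of 8 tested, 6 had lower and 2 higher means, and 0 passed (median log2 fold change -0.053, and 0.076 under library totals, where 3 were lower and 5 higher). Cpox stood at 0.17 (SE 0.079), Ppox at -0.29 (SE 0.16) and Fech, which inserts the iron, at -0.17 (SE 0.098). Alas1, the counterpart of Alas2 in other tissues, named here after its values were seen, had 174, 146 and 121 CPM in R193H hearts and 169.9, 159 and 122 CPM in wild type hearts (log2 fold change -0.033, SE 0.16). Of 9 genes of haem transport and iron delivery, 7 had lower and 2 higher means and 0 passed (median -0.022, and 0.11 under library totals, where 1 was lower), and the first by p was the glycine carrier Slc25a38 (-0.19, SE 0.14).

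Of 9 genes comprising erythroid transcription factors and the erythropoietin receptor, 5 were tested, 3 had lower and 2 higher means, and 0 passed (median log2 fold change -0.0010, and 0.12 under library totals, where 1 was lower). Epor stood at 0.54 (SE 0.32), Tal1 at -0.32 (SE 0.37) and Ldb1 at 0.068 (SE 0.0899). Gata1, the defining factor of red cell precursors, had 0 reads in 5 hearts and 3 in wild type replicate 1, and Klf1 had at most 4 reads in a heart. Of 8 genes around 2,3-bisphosphoglycerate and red cell glycolysis, 7 were tested, 4 had lower and 3 higher means, and 0 passed (median -0.00082, and 0.13 under library totals, where 2 were lower). Pgam1 and Pgam2, the mutases related to Bpgm, stood at -0.30 (SE 0.14) and -0.19 (SE 0.091), and Hk1 at -0.062 (SE 0.094).

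Gapdh had 44.9, 91.7 and 88.6 CPM in R193H replicates 1, 2 and 3, and 5.82, 52.7 and 5.51 CPM in wild type replicates 1, 2 and 3. Its lowest hearts were wild type replicates 1 and 3, the hearts richest in globin reads. Its log2 fold change was 1.81 (SE 1.08, edgeR adjusted p = 0.90), and 3.73 (SE 0.42, edgeR adjusted p = 0.42) without wild type replicate 2. Gapdh has many pseudogenes, so its counts are uncertain. Of 12 genes that clear haemoglobin and haem, 11 were tested, 5 had higher and 6 lower means, and 0 passed (median -0.067, and 0.059 under library totals, where 2 were lower). Hp, haptoglobin, which binds free haemoglobin, had 0.809, 1.24 and 1.26 CPM in R193H hearts and 1.49, 3.03 and 1.60 CPM in wild type hearts (log2 fold change -0.89, SE 0.36, edgeR adjusted p = 0.82). Hmox1, the inducible enzyme of haem breakdown, had 16.9, 19.8 and 11.1 CPM in R193H hearts and 10.5, 9.39 and 13.4 CPM in wild type hearts (0.52, SE 0.22, edgeR adjusted p = 0.85). Hp had its highest level in wild type replicate 2, the heart lowest in globins, while Hmox1 was lowest there among the 6 hearts, as the globins were. Without wild type replicate 2 the log2 fold change of Hp was -0.49 (SE 0.35).

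Other blood cells were compared through their marker lists. The 18 neutrophil markers summed to 11.2, 9.84 and 10.7 CPM in R193H replicates 1, 2 and 3, and 36.0, 5.39 and 19.2 CPM in wild type replicates 1, 2 and 3. As for the globins, wild type replicate 2 was the lowest heart and wild type replicates 1 and 3 the highest. Only 6 of the 18 were tested, of which 4 had lower and 2 higher means and 0 passed (median log2 fold change -0.57, -2.06 over 11 tested without wild type replicate 2, and -0.14 without wild type replicate 1). The markers added without wild type replicate 2, among them Ngp and S100a8, passed the filter through wild type replicates 1 and 3, where they were high. The median of -2.06 thus rests partly on how these markers entered and is not comparable with -0.57. With no filter all 18 were tested, 15 had lower and 3 higher means and 0 passed (median -1.72). Cxcr2 stood at -1.33 (SE 0.74), S100a9 at -1.51 (SE 0.99), Mmp9 at -0.53 (SE 0.33) and Lcn2, which other cells also make, at 0.52 (SE 0.31). Ngp, a granule protein named here after its values were seen, had 2, 3 and 4 reads in R193H hearts and 58, 0 and 31 in wild type hearts.

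The 15 platelet markers summed to 113, 206 and 115 CPM in R193H hearts and 169.6, 157 and 122 CPM in wild type hearts, most of it Vwf and Pf4, which endothelial cells and macrophages also make. Of 7 tested, 5 had lower and 2 higher means and 0 passed (median -0.16, with 0.20 without wild type replicate 1 and -0.85 over 8 tested without wild type replicate 3). With no filter all 15 were tested, 13 had lower and 2 higher means and 0 passed (median -1.33). Tubb1, the tubulin of platelets, had 0.0899, 0.640 and 1.26 CPM in R193H hearts and 6.24, 0.303 and 1.70 CPM in wild type hearts (-2.02, SE 1.22). Itga2b stood at -1.33 (SE 0.89), with its highest level of 9.01 CPM in wild type replicate 1.

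The 18 lymphocyte markers summed to 50.8, 59.0 and 36.5 CPM in R193H hearts and 59.3, 21.3 and 29.0 CPM in wild type hearts. Of 14 tested, 11 had higher and 3 lower means and 0 passed (median 0.64, with 0.23 over 17 tested without wild type replicate 2 and 1.15 without wild type replicate 1). The first by p were the T and natural killer cell genes, with Trac at 1.39 (SE 0.44), Nkg7 at 1.80 (SE 0.58), Cd8a at 1.40 (SE 0.62) and Cd3e at 1.01 (SE 0.48). Among the 3 with lower means, named after their values were seen, were the B cell genes Cd79a (-1.04, SE 0.74) and Cd79b (-0.60, SE 0.53), each highest in wild type replicate 1.

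Of 10 monocyte markers, 7 were tested, 5 had higher and 2 lower means and 0 passed (median 0.14, and 0.097 to 0.29 with 1 heart left out, lowest without wild type replicate 2 and highest without R193H replicate 3), with Ccr2 at 1.56 (SE 0.59). Of 9 macrophage markers, 8 were tested, 7 had higher and 1 had a lower mean and 0 passed (median 0.30, and 0.16 to 0.45 with 1 heart left out, lowest without R193H replicate 2 and highest without R193H replicate 3). Of 8 endothelial markers, all 8 had higher means and 0 passed (median 0.097, and 0.032 to 0.18 with 1 heart left out, lowest without wild type replicate 2, where 2 were lower, and highest without wild type replicate 3). The summed endothelial level was 1223 to 1366 CPM in R193H hearts and 1120 to 1372 CPM in wild type hearts. It lacked the wide spread that the globins had among wild type hearts. The part that white cells or platelets had in the red cell values was not tested.

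**Figure D5:**
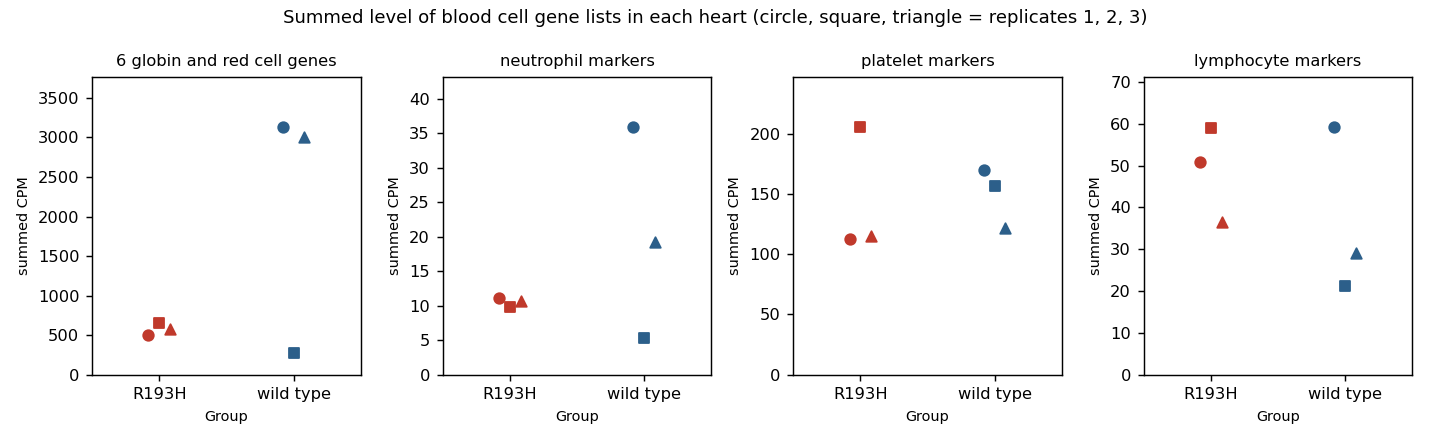
Summed CPM per heart of the 6 globin and red cell genes and of the neutrophil, platelet and lymphocyte marker lists, with R193H hearts left of wild type hearts and every vertical axis starting at 0. Neutrophil markers put wild type replicate 2 lowest (5.39 CPM) and wild type replicates 1 and 3 highest, as the red cell genes do, while platelet and lymphocyte sums overlap without that order.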

How the data were processed

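RNA was sequenced from 6 mouse hearts, and the authors deposited 1 table of raw read counts per gene symbol, not normalized. The submitters' processing notes name HISAT2 2.0.4 and GRCm38, without their roles. Which counting program, annotation, strand setting and RNA selection were used is not given in the sources used here. Columns were matched to hearts by title and groups taken from the genotype label. Replicate numbers follow the order of listing and pair no hearts. All pairs of hearts differed beyond sampling noise (chi-square per degree of freedom of 13.6 to 45.7).

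The test was that of edgeR 4.0.16 under R 4.3.3 (genes kept by filterByExpr, 14370 in number, TMM, robust quasi-likelihood test, no covariate), with Benjamini-Hochberg adjustment over all genes tested and a threshold of 0.05. Log2 CPM used a prior count of 2. Shares and ratios were compared with exact permutation tests over hearts (scipy 1.17.1). Alternatives were other scalings and filters, DESeq2 1.42.0, limma-voom (limma 3.58.1), a non-robust fit, leaving out mitochondrially encoded genes, a globin covariate and leaving out each heart. The script was tested on simulated data. Coordinates and promoters are RefSeq's on GRCm38.p6, and transcripts are GENCODE M21's on GRCm38. Of 4 listed symbols not in the table, 3 were found under an older symbol and Ahsp was not analysed here.

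The members, gene lists and tests were chosen with earlier results of these data known. Named genes were the 6 members, up to 4 tested genes of a list by smallest unadjusted p, and the 10 nearest profiles. Others are said to be named after their values were seen, or, for Slc4a1, are a defining red cell marker. Some genes that these rules would name are not reported here.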

Additional observations from a re-analysis of the deposited data

How the results depend on the processing

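All 90 alternative log2 fold changes of the 6 genes were below 0, and none of them was called except without wild type replicate 2. The globin covariate was not among the alternatives for the members. The 90 values are refits of the same hearts for genes that vary together, so they are not independent. Leaving out 1 heart moved the number of members called between 0 and 6. The count of all genes called was 38 with no filter, 42 with DESeq2, 0 without mitochondrially encoded genes and 0 with the globin level as a covariate (both edgeR, with 806 and 871 genes at an unadjusted p under 0.05, against 824), and it was 3 to 21 with 1 heart left out (3, 6 and 21 without R193H replicates 1, 2 and 3, and 6, 7 and 4 without wild type replicates 1, 2 and 3). The cause was not tested, beyond the removal of TrnL1, the 1 gene called, with the mitochondrial genes. The alpha to beta log2 ratio turned to 0.069 with Hba-a2 alone. Library totals moved the median of all genes to 0.13. Of 120 alternative list medians, 35 moved by more than the standard error over the list's genes. The 29 Hba-a2 reads of wild type replicate 2 limit the ratios that use it. No paired analysis was possible because replicate numbers only follow the order of listing.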
